A study of Mus musculus with 15 samples.

Results

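The 9 genes described here mark T and B lymphocytes and were taken by gene symbol. The rule uses no measured value, although the set was chosen with earlier results of these data known. The T cell genes are Cd3d, Cd3e, Cd3g, Cd8a and Cd4, and the B cell genes are Cd79a, Cd79b, Ms4a1 and Ighm. They are 9 of the 55401 genes counted in each library, and all 9 were among the 26862 genes with at least 10 counts summed over the 15 libraries. RNA was sequenced from hearts of 12-week-old male C57BL6 mice that received isoproterenol, an agonist of β-adrenergic receptors, subcutaneously at 50 mg/kg/day, or saline. Libraries came from 4 hearts after 4 days of isoproterenol, 3 after 8 days, 4 after 11 days and 4 after saline, and each is named by its group and letter. All groups shared strain, sex and age, and the hearts had been perfused with a KCl solution and then with buffer before a piece was frozen. The study gave saline over a similar period, and the day on which each saline heart was taken is not given in the sources used here.

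T lymphocytes recognise antigen through the T cell receptor, which signals through the CD3 chains, and the coreceptors CD4 and CD8 bind MHC class II and class I on the presenting cell. B lymphocytes recognise antigen through surface immunoglobulin, whose signalling chains are encoded by Cd79a and Cd79b, and most naive B cells carry the μ heavy chain encoded by Ighm. The healthy heart holds few lymphocytes, B cells among them, many of which lie within its vessels, and lymphocytes take part in the response to cardiac injury.

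Each library held between 25404162 and 117777005 expected counts, of which mitochondrial transcripts took 47.5 to 58.4%. Levels are given in CPM, the counts of a gene scaled to a common library total, and a count of 3 corresponded to 0.0255 to 0.118 CPM, depending on the library, so the lowest levels below rest on a few reads. The library 8-day A stood apart, since CT010467.1 and Lars2 took 15.8% of its counts, against at most 0.0916% in any other library. The tissue label was borne out by 10 cardiomyocyte genes, whose summed level was 67300 to 80700 CPM in every library. CPM values are scaled by the trimmed mean of M values (TMM), and each gene's change is a log2 fold change of isoproterenol over saline with its standard error (SE). In RNA of whole tissue, fewer lymphocytes, less RNA per lymphocyte and more RNA from other cells cannot be told apart.

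The comparisons ask whether lymphocyte transcripts changed in the heart during isoproterenol treatment. By edgeR no marker was higher than in saline past the threshold at any time, and 1 was lower, Cd79a after 11 days, at 3.47-fold below saline. By edgeR's quasi-likelihood test, with adjustment over all genes tested and a threshold of 0.05, 0 of the 9 markers were called after 4 days, when 9.46% of all genes tested were called. After 8 days 0 of 9 were called, against 2.27% of all genes, and after 11 days 1 of 9, against 3.75% of all genes, or 1.95% called lower. At an unadjusted p under 0.05 there were 1, 2 and 4 markers at 4, 8 and 11 days, against 22.2%, 13.0% and 17.2% of all genes. DESeq2 gave an adjusted p for 6, 3 and 4 of the 9 markers at 4, 8 and 11 days, so its counts are not out of 9. Of these it called 0, 0 and 1, the last being Ighm. It called 978 and 1624 of all genes at 8 and 11 days, and more genes than edgeR did at 4 days. It gave 0, 0 and 4 markers at an unadjusted p under 0.05. The share of all genes under that p by DESeq2 is not given here, so these 3 numbers cannot be weighed against it. DESeq2 gave no adjusted p for Cd3d, Cd3e and Cd3g at any of the 3 times. The same held for Cd8a and Cd79a at 8 and 11 days and for Cd79b at 8 days.

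The fitted fold change was below 0 for 9, 8 and 8 of the 9 markers at 4, 8 and 11 days, against 49.2%, 51.5% and 51.5% of all genes. With scaling by library size alone, Cd8a, Cd4, Ms4a1 and Ighm were above 0 at 4 days, and all genes had a median of 0.21 at that time on this scale, against 0.01 with TMM. The median log2 fold change of the 9 markers was -0.55 at 4 days, -0.78 at 8 days and -0.82 at 11 days, beside 0.01, -0.01 and -0.01 for all genes. These 3 comparisons share the same 4 saline libraries, so the directions are not independent of each other.

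**Figure D1:**
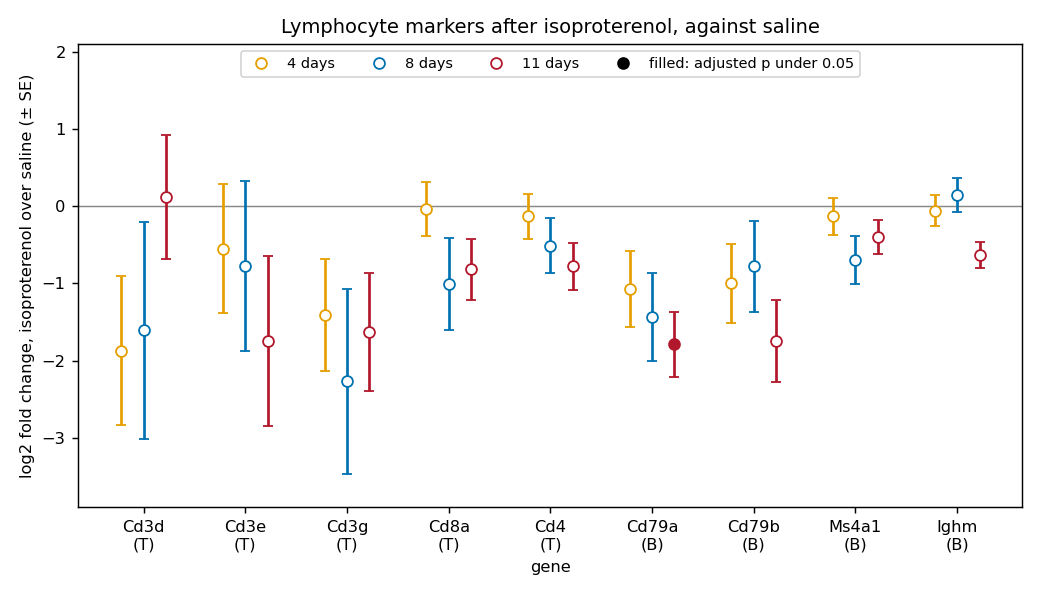
Log2 fold change of each of the 9 markers (isoproterenol over saline, TMM scale, bars ± SE) after 4, 8 and 11 days, with a filled point where edgeR's adjusted p is under 0.05. The filled point is Cd79a at 11 days, at -1.79, and most others lie below 0, of which Cd8a, Cd4, Ms4a1 and Ighm at 4 days lie above 0 with scaling by library size alone.

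Levels per transcript length differed most between Ighm and the rest. Ighm averaged 1.77 ± 0.685 FPKM over the 15 libraries (SD), and its lowest library, at 1.01, was above the highest value of any other marker, 0.69. Cd4 followed at 0.295 ± 0.174, Ms4a1 at 0.238 ± 0.0723, Cd79b at 0.147 ± 0.115, Cd79a at 0.0753 ± 0.0551 and Cd8a at 0.0573 ± 0.0234 FPKM. The CD3 chains were lowest, with means of 0.046 for Cd3e, 0.0373 for Cd3g and 0.0327 FPKM for Cd3d. From Cd4 downward, the means of neighbours in this order differed by less than the larger of their SDs. FPKM of a gene with few counts moved with the transcript to which a read was given: Cd3d reached 0.22 FPKM in 11-day B on 1 count given to a transcript of 286 bases, and Cd4 reached 0.69 FPKM in 8-day B on 7 counts. By mean FPKM, 62.8% of the genes tested lay below Ighm and 11.6% below Cd3d.

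The CD3 chains, which carry the signal of every T cell receptor, were close to the detection limit. Cd3d had at most 3 counts in 12 of 15 libraries, Cd3e in 12 and Cd3g in 13, and the genes lie next to each other on chromosome 9 (chr9:44981786-44987339, chr9:44998740-45009627 and chr9:44969572-44980431, GRCm38). The 3 genes together had 22 counts over the 4 libraries after 4 days, 5 over the 3 libraries after 8 days and 20.2 over the 4 libraries after 11 days, against 40 over the 4 saline libraries. Saline C, the deepest library, held 26 of those 40. Relative to library totals, the summed ratio to saline was 0.505 at 4 days (95% exact interval 0.286 to 0.87), 0.293 at 8 days (0.0901 to 0.741) and 0.488 at 11 days (0.27 to 0.855). These intervals cover counting error only and not the spread between hearts. The summed level ranged from 0.0257 to 0.111 CPM after 4 days, from 0 to 0.169 after 8 days and from 0.0275 to 0.187 after 11 days, against 0.036 to 0.295 CPM after saline, so the groups overlapped.

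By gene, Cd3g had 4, 1, 2 and 0 counts after 4 days, 0, 0 and 1 after 8 days and 1, 0, 1 and 3 after 11 days, against 1, 2, 9 and 3 after saline. Its log2 fold change was -1.41 ± 0.73 at 4 days, -2.27 ± 1.2 at 8 days and -1.63 ± 0.77 at 11 days, and none passed (edgeR adjusted p = 0.289, 0.465 and 0.3). Cd3e had 1, 0, 8 and 3 counts after 4 days, 0, 3 and 0 after 8 days and 4, 0, 0 and 0 after 11 days, against 1, 1, 10 and 3 after saline. Library 11-day A thus held all of the Cd3e counts of its group. The changes of Cd3e, at -0.55 ± 0.84, -0.77 ± 1.1 and -1.75 ± 1.1, did not pass (edgeR adjusted p = 0.782, 0.851 and 0.446). Single libraries decided the size of several of these values. With each library left out in turn, Cd3e ranged from -1.27 to -0.07 at 4 days, from -4.68 (without 8-day B) to -0.15 (without 8-day A) at 8 days and from -4.96 (without 11-day A) to -1.14 (without 11-day D) at 11 days. Cd3g ranged from -4.70 (without 8-day C) to -1.73 at 8 days, and Cd3d from -4.10 (without 8-day B) to -1.06 at 8 days. The values below -4 come from fits in which the treated group had 0 counts, so they are no measure of size. Cd3d had 1, 0, 2 and 0 counts after 4 days, 0, 1 and 0 after 8 days and 5, 1, 1.34 and 3.87 after 11 days, against 0, 2, 7 and 1 after saline. Its changes at 4 and 8 days, -1.87 ± 0.96 and -1.61 ± 1.4, did not pass (edgeR adjusted p = 0.283 and 0.694). Cd3d was the only marker whose fitted change at 11 days was above 0, at 0.12 ± 0.80, and it was -0.30 without saline A and -0.43 without 11-day A. At 8 days the ratio to saline rested on 1 count for Cd3d (0.234, exact interval 0.00539 to 1.65), 3 for Cd3e (0.468, 0.0869 to 1.65) and 1 for Cd3g (0.156, 0.00371 to 1.01). The annotated genes Gm48719 and Gm48720 overlap Cd3e and had 0 counts in every library.

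Cd8a, on chromosome 6 (chr6:71373427-71379173), encodes the α chain of the CD8 coreceptor, which is carried by cytotoxic T cells and, in the mouse, by some dendritic cells. It had 0.139, 0.257, 0.176 and 0.196 CPM after 4 days, 0.0305, 0.169 and 0.0957 CPM after 8 days, and 0.0750, 0.138, 0.126 and 0.0996 CPM after 11 days, against 0.234, 0.118, 0.186 and 0.211 CPM after saline. The 4-day libraries overlapped the saline libraries, while 2 of the 3 libraries after 8 days and 2 of the 4 after 11 days lay below the lowest saline library. The change was -0.04 ± 0.35 at 4 days (0.16 with scaling by library size alone), -1.01 ± 0.60 at 8 days and -0.82 ± 0.39 at 11 days, and none passed (edgeR adjusted p = 0.971, 0.523 and 0.302).

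Cd4 (chr6:124864692-124888221) encodes the coreceptor of helper and regulatory T cells. It had 0.548, 0.308, 0.455 and 0.393 CPM after 4 days, 0.336, 0.296 and 0.383 CPM after 8 days, and 0.300, 0.193, 0.341 and 0.279 CPM after 11 days, against 0.396, 0.765, 0.406 and 0.422 CPM after saline. Every 8-day and every 11-day library lay below every saline library. Such a separation was seen for 3 of the 9 markers at 8 days (Cd4, Cd79a and Ms4a1), against 5.97% of all genes, and for 2 at 11 days (Cd4 and Cd79a), against 4.77% of all genes. At 4 days it was seen for 0 of the 9 markers, against 5.65% of all genes. For Cd4 the change was -0.13 ± 0.29 at 4 days (0.07 with scaling by library size alone), -0.51 ± 0.36 at 8 days and -0.78 ± 0.30 at 11 days, and none passed (edgeR adjusted p = 0.864, 0.614 and 0.188). Saline B was the highest of all libraries, with 26 counts.

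The 5 T cell markers together ranged from 0.591 to 0.743 CPM after 4 days, from 0.366 to 0.635 CPM after 8 days and from 0.358 to 0.562 CPM after 11 days, against 0.666 to 1.03 CPM after saline. The 8-day and 11-day ranges did not overlap the saline range. Cd4 was the largest part of each sum, so this separation is not independent of that of Cd4 above, and the summed CD3 chains overlapped saline. In saline Cd4 averaged 0.245 FPKM, against 0.025, 0.0625 and 0.0875 FPKM for Cd3d, Cd3e and Cd3g. Whether the Cd4 reads came from T cells was not tested.

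**Figure D2:**
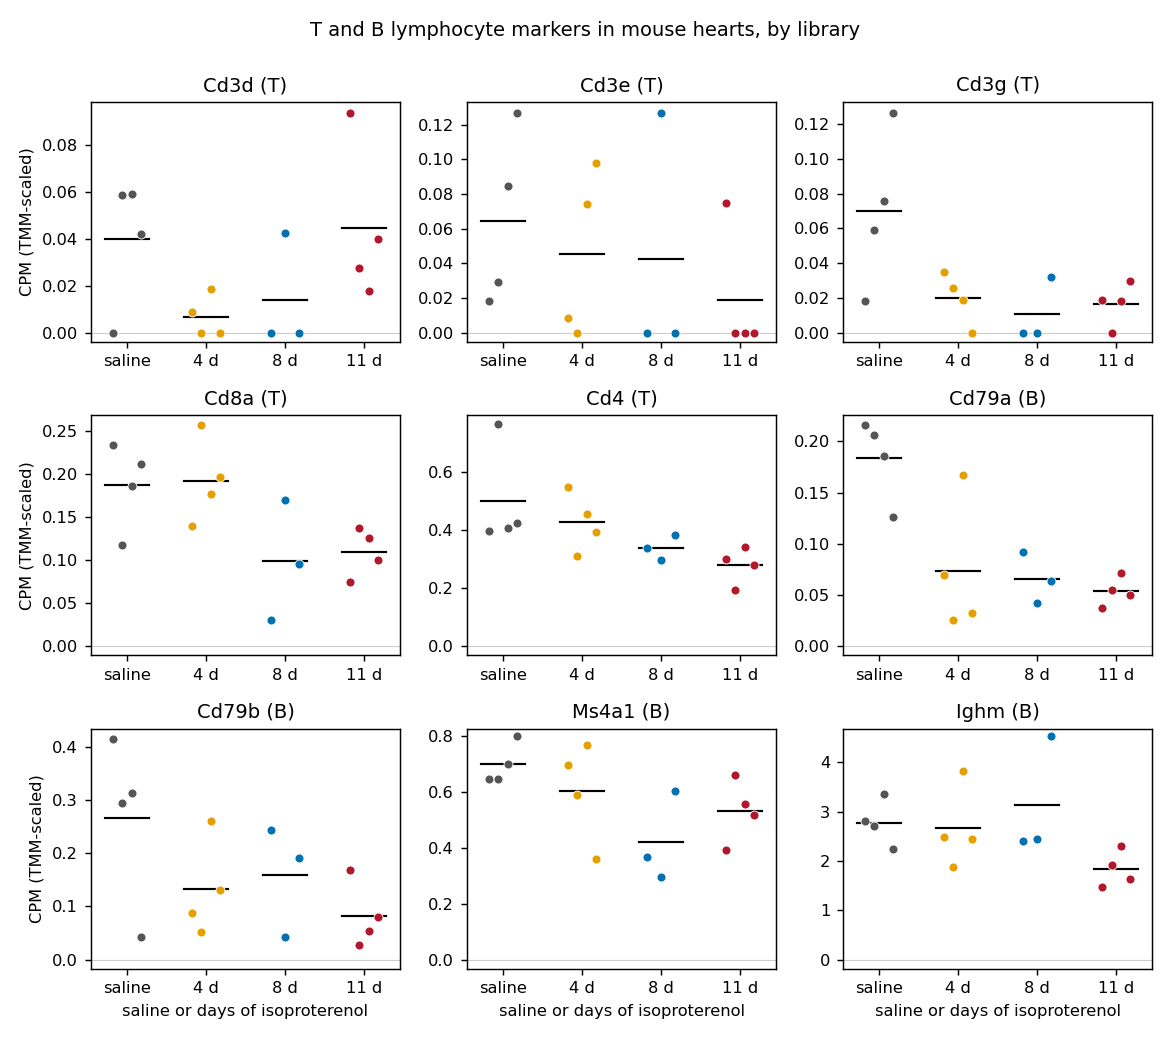
CPM (TMM-scaled) of each marker in every library, with the 5 T cell genes (T) first and the 4 B cell genes (B) after them. Points are libraries, black lines are group means, and each panel has its own scale from 0. The 4 libraries after 11 days sit between 0.0375 and 0.0717 CPM for Cd79a, below the saline libraries at 0.127 to 0.216 CPM, while the Cd3 genes are at 0 in several libraries.

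Cd79a (chr7:24897381-24902197, plus strand) encodes Igα, the chain that couples surface immunoglobulin to signalling in B cells from the earliest stages on. It had 0.0375, 0.0551, 0.0717 and 0.0498 CPM after 11 days, against 0.216, 0.206, 0.186 and 0.127 CPM after saline, so that every 11-day heart was below every saline heart. In counts these were 2, 2, 4 and 5 after 11 days, against 12, 7, 22 and 3 after saline. The log2 fold change was -1.79 ± 0.42, and it passed the threshold (edgeR adjusted p = 0.0317). Relative to library totals, the ratio of counts was 0.288, with an exact interval for counting error of 0.142 to 0.545.

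After 8 days Cd79a had 0.0915, 0.0423 and 0.0638 CPM, again below all 4 saline libraries, with a log2 fold change of -1.44 ± 0.57 that did not pass (edgeR adjusted p = 0.277). After 4 days it had 0.0696, 0.0257, 0.167 and 0.0327 CPM, and 4-day C, with 18 of the 28 counts of the group, overlapped the saline libraries. Its change at 4 days was -1.07 ± 0.49 (edgeR adjusted p = 0.218).

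The call at 11 days was lost with scaling by library size alone (edgeR adjusted p = 0.0629) and with the replicate letter as a block (edgeR adjusted p = 0.102). It was also lost without any 1 of saline A, saline C or the 4 libraries after 11 days (edgeR adjusted p = 0.0601 to 0.102). With each library left out in turn, the log2 fold change stayed between -1.95 and -1.68. DESeq2 gave Cd79a no adjusted p at 11 days. The filter of edgeR's filterByExpr kept 5 of the 9 markers and removed Cd79a and the CD3 chains, so under it Cd79a was not tested.

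Cd79a was the only marker past the threshold in edgeR's test as reported, and its promoter is shown for that reason. The sequence runs from 250 bases before to 50 bases after the gene's start in RefSeq (chr7:24897247-24897546, plus strand, GRCm38.p6). This start lies downstream of the GENCODE start given above, so the window reaches into the gene as GENCODE annotates it, and the marked motif lies in that stretch. In the sequence the capitals mark its match to the Ets motif GGAAGT, searched on both strands. RefSeq promoters were matched for 5 of the 9 markers, Cd3d, Cd3e, Cd3g, Cd8a and Cd79a.
Cd79a promoter: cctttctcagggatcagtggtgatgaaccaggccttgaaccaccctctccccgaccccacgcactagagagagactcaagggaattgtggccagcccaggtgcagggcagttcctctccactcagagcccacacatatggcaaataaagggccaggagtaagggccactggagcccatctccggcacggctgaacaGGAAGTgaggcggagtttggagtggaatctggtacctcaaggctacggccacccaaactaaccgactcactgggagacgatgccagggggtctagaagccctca
GGAAGT was present in the promoters of 3 of these 5 markers, against 24.1% of 27025 promoters. The E-box CANNTG was present in 5 of 5, against 72.1% of all. The letters CCCNNGGG, a form of the EBF1 motif (13.4% of all), and the octamer ATGCAAAT (1.75% of all) were present in 0 of the 5. Sites that differ from these exact letters were not searched, so the absence of a match does not show that a promoter lacks an EBF1 site. Of the 5 genes only Cd79a is a B cell gene. A match is a description of these letters only.

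Cd79b (chr11:106311341-106314762) encodes Igβ, the partner of Igα in the B cell receptor. It had 0.0870, 0.0514, 0.260 and 0.131 CPM after 4 days, 0.244, 0.0423 and 0.191 CPM after 8 days, and 0.169, 0.0275, 0.0538 and 0.0797 CPM after 11 days, against 0.414, 0.294, 0.313 and 0.0422 CPM after saline. Saline D, with 1 count, lay among the isoproterenol libraries, and the other saline libraries lay above all isoproterenol libraries. The log2 fold change was -1.0 ± 0.51 at 4 days, -0.78 ± 0.59 at 8 days and -1.75 ± 0.53 at 11 days, and none passed (edgeR adjusted p = 0.28, 0.648 and 0.0888). Without saline D, the change at 11 days was -1.98 and passed (edgeR adjusted p = 0.029).

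Igα and Igβ are made as a pair, and their transcripts varied together: over the 15 libraries, r between Cd79a and Cd79b on the scale of log2(CPM + 0.5) was 0.77. This is a description over libraries that share the group differences and low counts. The next highest values among the 9 markers were 0.63 for Cd3g with Ms4a1 and 0.61 for Cd79a with Cd4, and r between Cd3d and Cd3e was 0.44.

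Red blood cell genes were counted beside the markers because the vessels of the tissue hold blood. Of 6 such genes 2 fell at 4 days, 0 at 8 days and 2 at 11 days, beside 3.4%, 1.2% and 1.95% of all genes called lower. The medians of the 6 genes were -1.48, -1.16 and -1.62. Their summed level was 38.6 to 208 CPM after 4 days, 87.4 to 197 CPM after 8 days and 63.8 to 201 CPM after 11 days, against 106 to 576 CPM after saline. Saline D had the lowest sum of the saline libraries, at 106 CPM, and also the lowest Cd79a and Cd79b of that group, and 4-day C had the highest sum of its group, at 208 CPM, and also the highest Cd79a and Cd79b. In 11-day D the sum was 201 CPM, and Cd79a was 0.0498 CPM. Other values did not run alongside the sum. Saline D had the highest Cd3e, Cd3g and Ms4a1 of the saline libraries, at 0.127, 0.127 and 0.802 CPM. Saline B had the highest red blood cell sum, 576 CPM, with Cd79a at 0.206 and Cd79b at 0.294 CPM, both below saline A. The part of blood content in the lymphocyte values was not tested.

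Ms4a1 (chr19:11249675-11266241) encodes CD20, a membrane protein of mature B cells. It had 0.696, 0.591, 0.771 and 0.360 CPM after 4 days, 0.366, 0.296 and 0.606 CPM after 8 days, and 0.394, 0.661, 0.556 and 0.518 CPM after 11 days, against 0.648, 0.647, 0.701 and 0.802 CPM after saline. All 3 libraries after 8 days lay below saline, and the 4-day and 11-day libraries overlapped it. Its change was -0.13 ± 0.24 at 4 days (0.08 with scaling by library size alone), -0.70 ± 0.31 at 8 days and -0.40 ± 0.22 at 11 days, and none passed (edgeR adjusted p = 0.818, 0.363 and 0.372).

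Most of the Ms4a1 signal was not assigned to its coding transcript. A transcript annotated as a retained intron, of 3 exons in the 3′ part of the gene, received 89.3% of the gene's 520.8 counts, and the annotated coding transcript received 8.11%. The coding transcript had 10.6 counts over the 4 libraries after 4 days, 2 over the 3 after 8 days and 7.2 over the 4 after 11 days, against 22.5 over the 4 saline libraries. The gene-level values of Ms4a1 therefore rest mainly on reads assigned to the retained-intron transcript. The antisense gene 4930526L06Rik spans Ms4a1 and had 0 to 3 counts per library, and because the strand setting of the counting is not given in the sources used here, reads of the 2 strands cannot be told apart.

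Ighm (chr12:113418558-113422730, minus strand) encodes the constant region of the immunoglobulin μ chain and was the most abundant marker, with 53 to 413 counts per library. It is made as a membrane form, which serves as the B cell receptor, and as a secreted form, which is released as IgM, through a choice of 3′ ends. The coding ends of both forms are shown because the counts were divided between them. Lower case marks the 18 bases that both share at the end of the last common exon, and capitals mark the bases particular to each form down to its stop codon (membrane form chr12:113418826-113420946, spanning introns, and secreted form chr12:113420867-113420946, minus strand, GRCm38).
Ighm membrane form: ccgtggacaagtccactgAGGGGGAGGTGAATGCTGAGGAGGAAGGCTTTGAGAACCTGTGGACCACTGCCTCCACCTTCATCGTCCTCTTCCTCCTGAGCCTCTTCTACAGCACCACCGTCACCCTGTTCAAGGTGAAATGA
Ighm secreted form: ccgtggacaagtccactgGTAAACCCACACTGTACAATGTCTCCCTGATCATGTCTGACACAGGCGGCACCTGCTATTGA
RSEM assigned 76.5% of the Ighm counts to the membrane form and 23.5% to the secreted form. Reads in the exons that both forms share were divided by estimate.

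At the gene level Ighm had 2.49, 1.87, 3.84 and 2.45 CPM after 4 days, 2.41, 2.45 and 4.53 CPM after 8 days, and 1.48, 1.93, 2.31 and 1.63 CPM after 11 days, against 2.81, 2.71, 3.35 and 2.24 CPM after saline. The 4-day and 8-day libraries overlapped the saline libraries, and 3 of the 4 libraries after 11 days lay below the lowest saline library. The log2 fold change was -0.06 ± 0.20 at 4 days (0.15 with scaling by library size alone), 0.15 ± 0.22 at 8 days (-0.22 without 8-day C) and -0.63 ± 0.17 at 11 days. None passed edgeR's test (adjusted p = 0.923, 0.847 and 0.0508). At 11 days the value sat at the threshold, and 6 of 8 other settings put it past, DESeq2 among them (adjusted p = 0.013 to 0.152 over the 8), as did 3 of the 8 fits with 1 library left out.

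The share of Ighm counts given to the secreted form was 23.4 to 34.2% after 4 days, 7.8 to 20.8% after 8 days and 20.8 to 34.0% after 11 days, against 9.8 to 25.2% after saline. The medians were 28.8%, 10.5% and 26.9%, against 14.9% after saline. All 4-day and 11-day libraries lay above 3 of the 4 saline libraries, and saline D, at 25.2%, lay among them. The secreted form had 269.4 counts over the 4 libraries after 4 days, 31.5 over the 3 after 8 days and 126.9 over the 4 after 11 days, against 104.2 over the 4 saline libraries. The membrane form had 577.6, 247.5 and 315.1 counts, against 593.8 after saline. These shares are estimates of RSEM and were not tested.

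**Figure D3:**
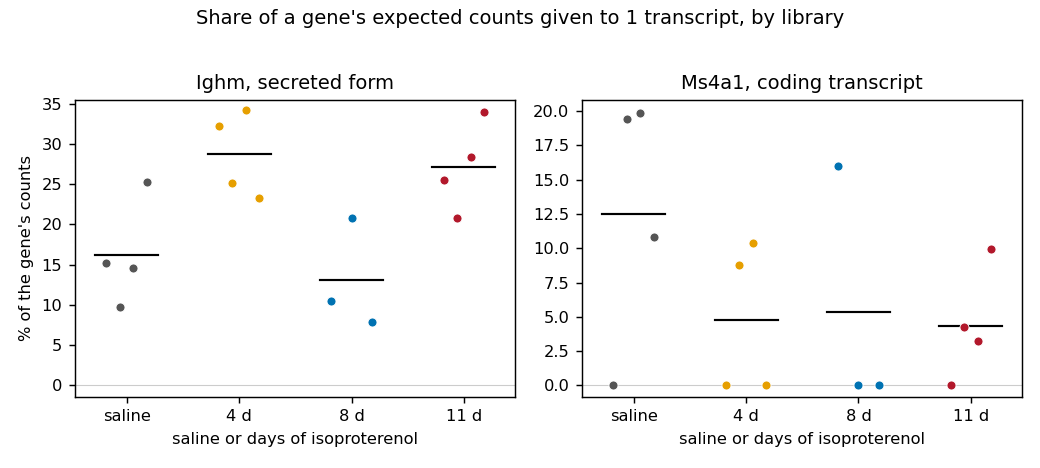
Share (%) of the counts of Ighm given to its secreted form, and of Ms4a1 given to its coding transcript, in every library. Points are libraries and black lines are group means. For Ighm the 4-day libraries lie between 23.4 and 34.2% and the saline libraries between 9.8 and 25.2%, and for Ms4a1 no library exceeds 19.8%.

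The 4 B cell markers together ranged from 2.54 to 5.03 CPM after 4 days, from 2.83 to 5.39 CPM after 8 days and from 2.08 to 3.0 CPM after 11 days, against 3.21 to 4.55 CPM after saline. The 11-day range did not overlap the saline range. Ighm made up most of each sum, so the sums are not independent of the Ighm values above, which overlapped saline after 11 days.

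Times of treatment were also compared directly, in a fit of all 15 libraries. By edgeR 0 of the 9 markers differed between 8 and 4 days (1.02% of all genes), 0 between 11 and 4 days (8.11%) and 0 between 11 and 8 days (0.00372%), and DESeq2 called 0 in each among the markers to which it gave an adjusted p. At an unadjusted p under 0.05 there were 0, 3 and 1 markers, against 12.4%, 20.6% and 9.63% of all genes. After 11 days, as against 4 days, Ighm was at -0.57 ± 0.22, Cd4 at -0.64 ± 0.27 and Cd3d at 1.97 ± 0.92 log2 units (edgeR adjusted p = 0.14, 0.172 and 0.226). Cd8a, at -0.77 ± 0.38, was the 1 marker whose 11-day libraries all lay below the 4-day libraries, a separation seen in 7.15% of all genes. After 11 days, as against 8 days, Ighm was at -0.78 ± 0.25 log2 units (edgeR adjusted p = 0.355), and it was the 1 marker whose groups did not overlap, against 5.11% of all genes. In the test of any change over the 4 groups 0 of 9 markers passed by edgeR and 1, Ighm, by DESeq2, against 13.0% of all genes by edgeR. At an unadjusted p under 0.05 there were 3, against 26.2% of all genes, and the lowest edgeR adjusted p was 0.0631 for Cd79a.

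Other genes of the T cell receptor and its signalling were counted as a list, beside the shares of all genes called, 9.46% at 4 days, 2.27% at 8 days and 3.75% at 11 days. Of 22 such genes 0 rose at any time, 2 fell at 4 days, 0 at 8 days and 1 at 11 days. Counted in either direction these are near those shares, while 3.4%, 1.2% and 1.95% of all genes were called lower. The median log2 fold changes of the list were -0.41, -0.36 and -0.60. Ctla4, an inhibitory receptor of activated and regulatory T cells, fell to 0.578 ± 0.079 CPM after 4 days, against 1.62 ± 0.33 CPM after saline (SD), a log2 fold change of -1.54 ± 0.20 (edgeR adjusted p = 0.000635). It was also lower after 11 days, by -0.86 ± 0.19 (edgeR adjusted p = 0.0215). Cd28, the costimulatory receptor, fell by 0.67 on the log2 scale at 4 days (edgeR adjusted p = 0.0148). In saline, Ctla4 and Cd28 averaged 1.62 and 3.09 CPM, far above Cd3d, Cd3e and Cd3g at 0.04, 0.0646 and 0.0699 CPM. Whether the Ctla4 and Cd28 reads came from T cells was not tested. Il7r, the receptor of a survival factor of lymphocytes, was at 1.80 ± 0.53 at 4 days and did not pass (edgeR adjusted p = 0.0505).

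Among 15 tested genes of the B cell receptor and B cell identity, of 16 listed, 1 rose at 4 days, 1 fell at 8 days and 1 fell at 11 days. Of all genes 9.46%, 2.27% and 3.75% were called in either direction at 4, 8 and 11 days. At 4 days 6.05% of all genes were called higher, and 1.2% and 1.95% were called lower at 8 and 11 days. The medians of the B cell list were -0.58, -0.65 and -1.19. Ighd, the δ heavy chain of naive B cells, was lower by -3.26 ± 0.78 at 8 days and by -1.94 ± 0.42 at 11 days (edgeR adjusted p = 0.0461 and 0.0221). Its level was 0 to 0.0957 CPM after 8 days and 0.0359 to 0.129 CPM after 11 days, against 0.147 to 0.448 CPM after saline. The 8-day change rests on a few reads near the detection limit, so it is a poor measure of size. Cd72, a B cell surface protein that other leukocytes also express, rose by 0.88 ± 0.23 at 4 days (edgeR adjusted p = 0.0251). Pax5, the factor that holds B cell identity, was at -1.64 ± 0.47 and Igkc, the κ light chain, at -1.79 ± 0.57 at 11 days, and neither passed (edgeR adjusted p = 0.0723 and 0.111). Of 10 tested plasma cell genes 0 were called at any time, with medians of -0.08, 0.01 and 0.12. The plasma cell genes with the smallest p were Sdc1, Ighg2c, Prdm1 and Igha. Of 12 genes of natural killer and cytotoxic cells 0 were called, with medians of -0.89, -0.63 and -1.66. Their summed level was 0.154 to 0.715 CPM after 4 days, 0.396 to 0.804 CPM after 8 days and 0.275 to 0.469 CPM after 11 days. After saline it was 0.76 to 1.12 CPM, which the 8-day range overlapped. Of 4 genes of immature thymocytes 1 was tested and Rag1 had 0 counts in every library.

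Genes of other leukocytes were counted in the same way. Of all genes 6.05% were called higher at 4 days, and 3.4%, 1.2% and 1.95% were called lower at 4, 8 and 11 days. Of 14 macrophage and monocyte genes 11 rose at 4 days, Lyz2 by 1.62 ± 0.23 and Cd68 by 1.83 ± 0.24 (edgeR adjusted p = 0.000882 and 0.000589), and the list's summed level was 239 to 398 CPM after 4 days, against 127 to 200 CPM after saline. Of 8 pan-leukocyte genes 4 rose at 4 days, Cd53 and Laptm5 among them, and at 11 days Coro1a fell, by 0.64 on the log2 scale (edgeR adjusted p = 0.0291). Of 10 genes of dendritic cells and MHC class II 4, 4 and 5 fell at 4, 8 and 11 days, and the others did not pass. H2-Aa, H2-Ab1, H2-Eb1 and Cd74, which encode MHC class II chains and their chaperone and are expressed by B cells, dendritic cells and macrophages, fell at all 3 times, and the other gene called at 11 days was Itgax, an integrin. H2-Aa was lower by -2.26 ± 0.20 at 11 days (edgeR adjusted p = 5.3e-05). The list's summed level was 23.1 to 39.6 CPM after 11 days, against 88.4 to 121 CPM after saline. Of 7 chemokines that attract lymphocytes, 1 fell, Cxcl12 at 11 days (-0.55 ± 0.12, edgeR adjusted p = 0.0192). Differences between these lists and the lymphocyte markers were not tested.

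The remaining lists bear on tissue composition. Of all genes 6.05%, 1.07% and 1.8% were called higher at 4, 8 and 11 days, and 3.4%, 1.2% and 1.95% were called lower. All 8 fibroblast genes rose at 4 days, 5 at 8 days and 2 at 11 days, with medians of 2.31, 1.08 and 0.66, and 0 of 7 endothelial genes were called at any time. Of 10 cardiomyocyte genes 1 rose and 3 fell at 4 days, and 1, Myl3, fell at 8 and at 11 days. Of 7 tested neutrophil genes 1, Mmp9, fell at 4 days. Of 6 adipocyte genes 4 were tested and 0 were called, with summed levels of 0 to 0.334 CPM in all libraries. Their part in the lymphocyte values was not tested.

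**Figure D4:**
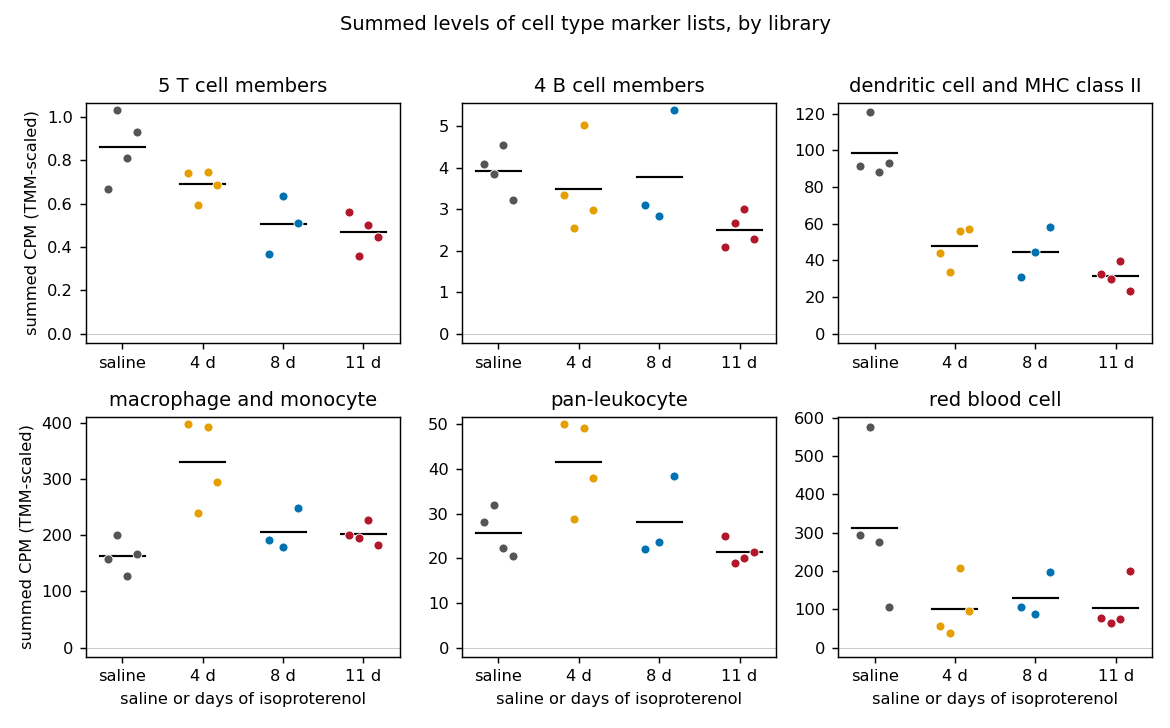
Summed CPM (TMM-scaled) of the 5 T cell and the 4 B cell markers and of 4 lists of markers of other cells in every library, each panel with its own scale from 0. Points are libraries and black lines are group means. Sums of the list of dendritic cell and MHC class II genes after 11 days lie at 23.1 to 39.6 CPM, below saline at 88.4 to 121 CPM, and macrophage sums after 4 days at 239 to 398 CPM, above saline at 127 to 200 CPM.

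The genes whose pattern over the 15 libraries was most like that of the markers were searched among genes with a mean of at least 0.5 CPM, by Pearson's r of log2(CPM + 0.5). For the sum of the 5 T cell markers these were Adam11, H2-DMb1, Rhoa, AI839979 and Eif4g3 (r = 0.89 to 0.86), of which H2-DMb1 encodes a chain of the MHC class II peptide loader. For the sum of the 4 B cell markers they were Vasn, Sla, D830030K20Rik, Rassf4 and Pald1 (r = 0.90 to 0.84). For Ighm alone they were Sla, Tnfrsf21, Rassf4, Vasn and D830030K20Rik (r = 0.86 to 0.85), so 4 genes were shared with the B cell sum, to which Ighm contributes most. For Ms4a1 they were Ces2f, Igsf8, Aptx, Kcnq3 and Pde7b (r = 0.84 to 0.82). Each set was the highest of 15197 or 15198 values, the libraries share their group differences, and the values are descriptions.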

How the data were processed

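Hearts of mice were profiled by sequencing of total RNA. Per the submitters' processing notes, reads were trimmed with cutadapt 4.1, aligned to GRCm38.p6 with HISAT2 2.2.1 and quantified with RSEM 1.3.3. Deposited by the authors were expected counts for genes and transcripts, estimated by RSEM without normalization, and FPKM per gene, which RSEM derived from them with the effective length of the gene. A replicate of the 8-day group had been excluded by the study and was not analysed here.

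After rounding, tests covered genes reaching 10 counts summed over the 15 libraries. Counts were scaled by TMM, and edgeR 4.0.16 (R 4.3.3) compared each time with saline separately by the quasi-likelihood test, two-sided, Benjamini-Hochberg adjustment over all genes and a threshold of 0.05. Times were compared with each other, and any change over the groups was tested, in a fit of all libraries. The SE is the size of the log2 fold change divided by the square root of F. Exact intervals are 95% Clopper-Pearson intervals of the split of counts. FPKM was used for levels between genes and transcript counts as descriptions.

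The markers, the 15 companion lists and the tests were chosen with earlier results of these data known. All 9 markers are named in the comparisons, and from each list up to 4 genes with the smallest p over the comparisons with saline may be named. The values of 1 listed gene are not reported here. Alternatives were scaling by library size or DESeq2 size factors, DESeq2 1.42.0, no filter, filterByExpr, robust dispersions, the replicate letter as a block, all groups in 1 fit, and each library left out. The fit of 4 days against saline was checked on simulated counts, with changes planted only among genes of higher level in saline. That check does not cover the markers with the fewest counts or the other times. Groups of 3 or 4 hearts limit the precision, and p-values measure the spread between these hearts. Positions are those of GENCODE M21 (GRCm38). The strand setting is not given in the sources used here.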

Additional observations from a re-analysis of the deposited data

Results flagged for a closer look

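In groups of 4 libraries, 27 sets of values were tested for 1 library far from the others by Dixon's ratio, of which chance flags about 1 in 20, and 2 were flagged. Cd3e in 11-day A was 0.075 CPM, on 4 counts, against 0 in the other 3 libraries after 11 days. Cd4 in saline B was 0.765 CPM, on 26 counts, against 0.396 to 0.422 CPM in the other saline libraries. Saline B also had the highest red blood cell sum (576 CPM) and the highest sum of dendritic cell and MHC class II genes (121 CPM) of all libraries, and their part in its Cd4 value was not tested. Without saline B, the log2 fold change of Cd4 at 4 days was 0.12, against -0.13 with it.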

How the results depend on the processing

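Over the comparisons with saline, 178 of 190 log2 fold changes of the markers under other settings, and 188 of 207 with 1 library left out, kept their direction and their side of the threshold. Markers removed by filterByExpr, or given no adjusted p by DESeq2, are not among the 190. A value that stayed uncalled in the same direction counts as kept, so these numbers say little about markers with few counts. The number of markers called after 11 days was 1 as reported, 0 with scaling by library size alone, and 2 (Cd79a and Ighm) with DESeq2 size factors, without a filter or with robust dispersions, and it ranged from 0 to 3 with each library left out. In the test of any change it was 0, against 1 (Ighm) with DESeq2, and 0 to 1 with each library left out (Cd79a without 4-day B or without 4-day C). The replicate letters do not pair the hearts (correlations of same-letter deviations -0.28 to 0.135, and 0 of 11 libraries matched best with their own letter). With the letter as a block, 1 marker (Ighm) was called in the test of any change and 1 (Ighm) between 11 and 4 days, and after 11 days Ighm was called in place of Cd79a (adjusted p = 0.0293 and 0.102, edgeR).

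Directions turned in uncalled values only. With library size alone the log2 fold change at 4 days was 0.163 for Cd8a, 0.067 for Cd4, 0.0763 for Ms4a1 and 0.154 for Ighm, and between 8 and 4 days it was -0.11 for Cd3d, -0.147 for Cd79b and -0.0438 for Ighm. With the block it was 0.0245 for Cd3e between 8 and 4 days. With each library left out, the range at 4 days was -0.187 to 0.112 for Cd8a, -0.30 to 0.115 for Cd4, -0.282 to 0.00211 for Ms4a1 and -0.31 to 0.0712 for Ighm. It was -0.219 to 0.301 for Ighm at 8 days and -0.425 to 0.635 for Cd3d at 11 days. Between 8 and 4 days it was -2.51 to 0.881 for Cd3d, -4.40 to 0.453 for Cd3e, -0.691 to 0.39 for Cd79a, -0.206 to 0.902 for Cd79b and -0.161 to 0.44 for Ighm. Between 11 and 4 days it was -0.675 to 0.199 for Cd3g and -0.91 to 0.0615 for Cd79a, and between 11 and 8 days -4.11 to 3.19 for Cd3e and -0.258 to 0.766 for Cd8a. Leaving out 8-day B gave the 3.19 for Cd3e between 11 and 8 days and the -2.51 for Cd3d between 8 and 4 days. In those fits 8-day A and 8-day C had 0 counts of the gene, so the values are no measure of size. Why directions turned was not tested.

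Over all genes, with each library left out, calls ranged from 1387 to 2973 after 4 days (2540 as reported), from 259 to 912 after 8 days (610) and from 527 to 1422 after 11 days (1006). They ranged from 5 to 700 between 8 and 4 days (273), from 974 to 2823 between 11 and 4 days (2178), from 0 to 13 between 11 and 8 days (1) and from 2198 to 3890 for any change (3489), so the shares of all genes called move with single libraries. Calls after 8 days (610) were 964 with all groups in 1 fit and 978 by DESeq2, and 0 markers were called there with or without 8-day A. Calls after 11 days (1006) were 635 with library size alone and 1624 by DESeq2. Between 8 and 4 days (273) they were 802 with library size alone, 685 by DESeq2, 546 without a filter and 174 with the block. Between 11 and 4 days (2178) they were 1229 with library size alone, and between 11 and 8 days (1) 6, 101, 50 and 4 with library size alone, DESeq2, no filter and the block. Low counts limit the CD3 chains most.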
